A study of Mus musculus with 6 samples.

Results

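CTCF peaks were described across the 3 T cell receptor loci of the mouse, alpha/delta on chromosome 14, beta on chromosome 6 and gamma on chromosome 13. The members were all peaks that overlapped these loci with 100 kb on either side. In mm39 the windows ran from 52560000 to 54560000 on chromosome 14, from 40768000 to 41636000 on chromosome 6, and from 19262000 to 19641000 on chromosome 13. They were chosen by position and not by any measured value. The 6 peak lists held 324 such peaks of 172581 in all, 240 at alpha/delta, 61 at beta and 23 at gamma. Merged over the lists at an overlap of 1 bp, they formed 134 of the 94951 regions of the genome.

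The study profiled CTCF by CUT&RUN, in which an antibody directs a nuclease to the bound protein and the released DNA is sequenced. The cells were thymic regulatory T cells of 2 genotypes, Cgas knockout (Cgas_KO), which lacks the DNA sensor cGAS, and wild type (WT), with 3 libraries each. The labels give no age, sex or strain of the mice, do not say whether the knockout was confined to a cell type, and do not say whether replicates came from separate animals, so p-values speak only for the spread among these libraries, and that spread may be technical. Peak lists hold no marker that could check the labelled cell type, and the genotype labels were not checked here.

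A T cell receptor chain is encoded by V, D, J and C segments that lie apart in the germ line and are joined by V(D)J recombination as a T cell develops in the thymus. The joining usually deletes the DNA between the segments that are joined. The delta segments with Trdc, the constant gene of the delta chain, lie inside the alpha locus between most V segments and the alpha J segments, so that joining of an alpha V to an alpha J segment removes them. CTCF binds DNA through zinc fingers and halts loop extrusion by cohesin. At antigen receptor loci it is known for bringing distant V segments and the recombination centre together and for limiting which segments can meet. A CTCF site beside the alpha enhancer, downstream of Trac, the constant gene of the alpha chain, is known from mouse thymocytes.

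The RefSeq table of GRCm38.p6, another build than that of the lists, was used for names, counts and order of the segments and for no position. It lists 136 V segments for alpha/delta, of which 17 are pseudogenes, with 2 D, 62 J and 2 C segments. Along the chromosome the order is most of the V segments, then the D and J segments of delta, Trdc, the J segments of alpha and Trac, and the next gene after Trac is Dad1, which encodes a subunit of the oligosaccharyltransferase. The beta locus has 35 V, 2 D, 14 J and 2 C segments there. Trbc1 and Trbc2, the constant genes of the beta chain, stand near its upper end, followed by Trbv31. The gamma locus has 7 V, 4 J and 4 C segments in alternating groups, from Trgv7 past Trgc1, a constant gene of the gamma chain, to Trgc4. As the segments were not placed on mm39, the D/J/C portion was taken as the last 120 kb before the upper border of the alpha/delta locus and the last 30 kb of the beta locus. These are round distances set by hand, and Trac may lie on either side of the alpha/delta border. The rest of each of these loci between its borders was called the V portion, and it is not V segments alone. In the RefSeq order, olfactory receptor genes also follow Trav1, and Prss58 follows Trbv1.

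The alpha/delta locus was crowded with peaks, and the beta and gamma loci were not. Per library it held 39, 33 and 55 peaks in Cgas_KO and 38, 43 and 32 in WT. This came to 21.2 ± 5.69 peaks per Mb in Cgas_KO and 18.8 ± 2.75 in WT (SD, n = 3 each). The rest of the genome had 11.2 ± 0.694 peaks per Mb in Cgas_KO and 10.5 ± 0.368 in WT (SD, n = 3 each), so that the locus had 1.56 to 2.30 times its density in the 6 libraries. The rest of chromosome 14 had 9.18 to 10.6 peaks per Mb.

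The beta locus had 12.7 ± 1.15 peaks per Mb in Cgas_KO and 10.8 ± 1.33 in WT (SD, n = 3 each), 0.892 to 1.25 times the rest of the genome. The gamma locus held 3, 5 and 3 peaks in Cgas_KO and 4 in each WT list, 0.661 to 1.25 times the rest. Within each library, the 3 loci together exceeded the rest of the genome by 5.78 peaks per Mb on average, higher in 6 of 6 libraries. An exact two-sided sign-flip test gave p = 0.03125, the smallest that 6 libraries allow, and a Benjamini-Hochberg adjusted p of 0.0625 over the 4 density tests. The alpha/delta locus alone was higher by 9.15 peaks per Mb in 6 of 6 libraries, with the same exact p of 0.03125 and adjusted p of 0.0625. For beta the difference was 0.853 (exact p = 0.15625, adjusted 0.208, higher in 5 of 6 libraries) and for gamma -0.746 (exact p = 0.40625, adjusted 0.406, lower in 3 of 6). Without its flanks the gamma locus differed by -5.27 peaks per Mb (exact p = 0.0625). After adjustment over the 4 density tests, none passed 0.05. The sign flips ask only whether the libraries share a direction. The share of windows of like size elsewhere in the genome that reach such a density was not counted. Of the 324 peaks, 240 were at alpha/delta, so the test of the 3 loci together and that of alpha/delta are not separate results.

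**Figure D1:**
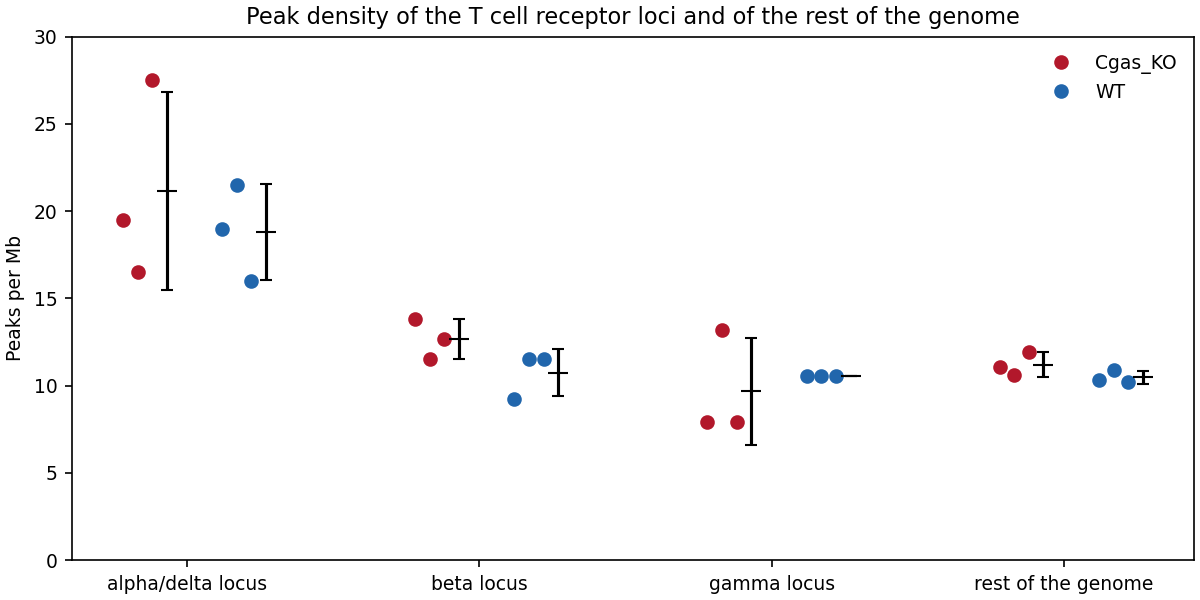
Peaks per Mb (y axis) in the 3 T cell receptor loci with 100 kb flanks and in the rest of the genome. Points are libraries, Cgas_KO left of WT in each pair, and the black marks give mean and SD of 3 libraries; all 6 alpha/delta values, from 16 to 27.5, lie above all values of the rest, from 10.2 to 11.96.

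Within the alpha/delta locus the peaks were bunched in the middle of the V portion. The stretch 400 to 900 kb from the lower border, chromosome 14 from 53060001 to 53560000, held 20, 20 and 30 peaks in Cgas_KO and 23, 27 and 18 in WT. It was drawn after bins of 100 kb had been seen. These peaks were 55.5% ± 4.73 of those of the locus in Cgas_KO and 59.9% ± 3.32 in WT (SD, n = 3 each), at 46.7 ± 11.5 peaks per Mb in Cgas_KO and 45.3 ± 9.02 in WT. The 5 bins of the stretch each held 20 to 34 peaks over the 6 lists, whereas the median bin of the genome held 4 and 6.37% of bins held 20 or more. The first 400 kb of the V portion held 6, 4 and 7 peaks in Cgas_KO and 3, 4 and 2 in WT. From 900 to 1400 kb there were 5, 2 and 8 peaks in Cgas_KO and 8, 6 and 5 in WT.

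Toward its upper end the alpha/delta locus had a long stretch that was empty in every list. No peak of any library lay on chromosome 14 from 54044757 to 54407780, a stretch of 363 kb that ends 52.2 kb before the upper border. Its lower end was set by a region of 4 lists and its upper end by a region of 1 list, WT replicate 2. Over the whole genome, 18 of 94930 stretches between regions, 0.0190%, were at least as long, and the median stretch was 12.4 kb. The last V segments, the segments of delta and Trdc come toward the upper end in the order of the table, and which of them fall in this stretch was not determined. The beta locus had a like stretch of 293 kb inside its V portion, chromosome 6 from 41115338 to 41407923, and 47 stretches of the genome were at least as long. The regions that bound it were called in 1 list below and in 2 lists above. Another beta stretch without peaks, of 111 kb, ran from 41411546 to 41522230. The longest in the gamma locus was 111 kb, chromosome 13 from 19421768 to 19532826. The lists hold no measure of DNA copy number or of how well reads can be placed, and their part in these empty stretches was not tested.

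**Figure D2:**
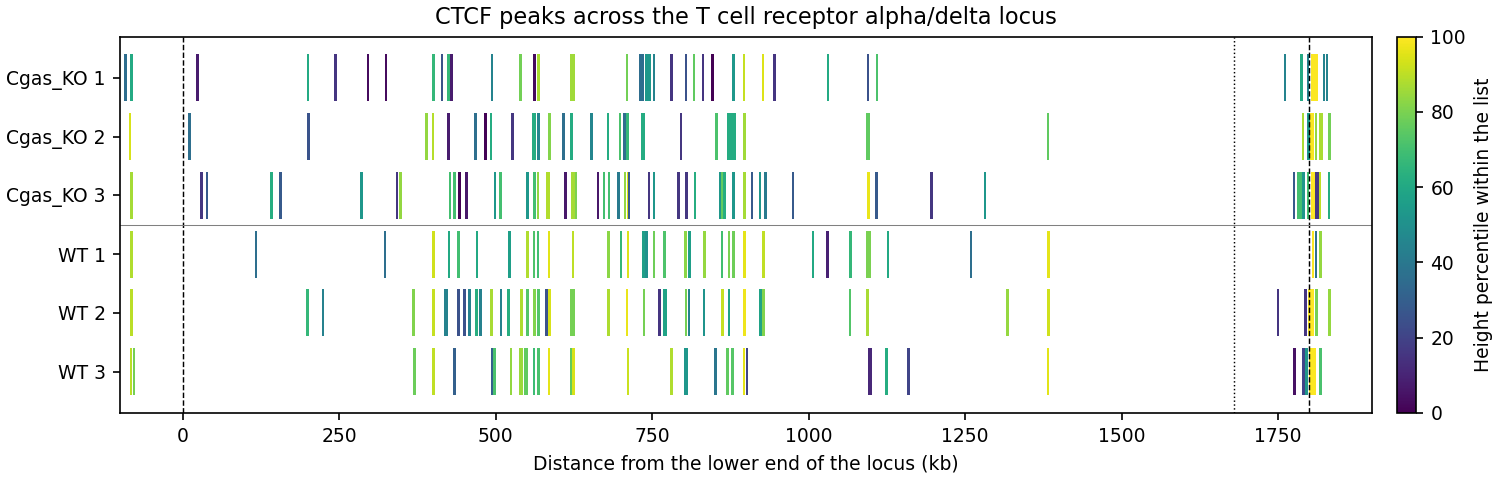
Peaks of the alpha/delta locus by library, Cgas_KO above WT, along the distance from the lower border of the locus (x axis, kb). Colour gives the height percentile within the list, dashed lines the borders of the locus, the dotted line the start of the D/J/C portion, and very narrow peaks are drawn at a minimum width; peaks crowd between 400 and 900 kb, and none lies in the 363 kb before the last 52.2 kb of the locus.

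The tallest site of all 3 loci lay at the upper end of alpha/delta, just past the border. The region, chromosome 14 from 54452060 to 54474832, was called in 6 of 6 lists. Heights are the deposited max signal of a peak, counted in steps, since below 200 steps every max signal was a whole number of times the same step within a list, to 0.01 step. The sources used here do not say what a step is, and its signal value differed, at 0.117 to 0.120 in Cgas_KO and 0.190 to 0.212 in WT, so heights in steps are descriptions and comparisons use ranks within a list. The height was 96, 69 and 85 steps in Cgas_KO and 151, 175 and 154 in WT, in lists whose median peak was 11 to 14 steps high. All WT values thus lay above all Cgas_KO values in steps. Over the genome, peaks in regions of 6 lists had medians of 22, 22 and 16 steps in Cgas_KO and 27, 24 and 27 in WT. These medians were apart in the same direction, and the share of single regions apart in steps was not counted. Ranked from the tallest peak of each list down, it was number 155, 287 and 88 in Cgas_KO and 169, 90 and 144 in WT, and the ranks of the groups overlapped. Its highest points in the 6 lists lay within 284 bp of one another, around position 54465518. That is past the upper border, the end at which Dad1 follows Trac in the table, and the region was not assigned to either gene.

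The D/J/C portion of alpha/delta itself held 3, 2 and 5 peaks in Cgas_KO and 0, 2 and 3 in WT, and the ranges of the groups overlapped. Over its 120 kb this was 27.8 ± 12.7 peaks per Mb in Cgas_KO and 13.9 ± 12.7 in WT, beside 20.2 ± 5.86 in Cgas_KO and 19.05 ± 3.72 in WT for the V portion (SD, n = 3 each). Its tallest peak had a height percentile of 60.6, 87.3 and 70.1 in the Cgas_KO lists and of 15.3 and 53.1 in the second and the third WT list. The last region of this portion, chromosome 14 from 54442572 to 54451919, was called in 3 of 3 Cgas_KO lists at 15, 23 and 13 steps and in 1 of 3 WT lists at 10 steps. It was chosen for mention after its values were seen. Its highest points were spread over 3041 bp. The tall region begins right after it, at 54452060, with a peak of WT replicate 2. Merged within 500 bp, they would form 1 region called in 6 of 6 lists, so 3 lists against 1 depends on how peaks were merged.

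Beside the tall site at its end, the alpha/delta window had 8 more regions called in all 6 lists, 7 of them in the V portion. The tallest was chromosome 14 from 53554380 to 53559030, at 26, 22 and 17 steps in Cgas_KO and 52, 58 and 50 in WT. Its rank was 2473, 3785 and 3898 in Cgas_KO and 1059, 713 and 1096 in WT, so the groups were apart in ranks. By rank among the regions in all 6 lists, 7.68% of those regions over the genome were apart in this direction. The highest points of the region fell within 293 bp. Next came chromosome 14 from 53367369 to 53374624, at 19, 16 and 24 steps in Cgas_KO and 43, 51 and 36 in WT, with highest points within 170 bp. Its rank was 5788, 8498 and 1410 in Cgas_KO and 1546, 910 and 2116 in WT, so the groups overlapped in ranks. Chromosome 14 from 53277897 to 53288646 had 22, 15 and 17 steps in Cgas_KO and 33, 21 and 41 in WT.

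In the lower flank, on the side of the olfactory receptor genes that precede Trav1, chromosome 14 from 52573645 to 52578605 had 15, 30 and 17 steps in Cgas_KO and 31, 29 and 32 in WT. Its highest points agreed within 221 bp. A pair of V portion regions stood next to each other, chromosome 14 from 53218613 to 53224152 and from 53225194 to 53230060. The first had 8, 15 and 13 steps in Cgas_KO and 20, 22 and 18 in WT. Its groups overlapped in rank within the library among the 4896 regions that all 6 lists had. These ranks were 4887, 4213 and 3708 in Cgas_KO and 3805, 3120 and 3994 in WT. The second had 23, 13 and 16 steps in Cgas_KO and 19, 18 and 19 in WT, and its groups overlapped in rank as well.

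The remaining V portion regions in all 6 lists looked less like single sites. Chromosome 14 from 53528510 to 53544289 had its highest points spread over 7305 bp, at 14, 15 and 11 steps in Cgas_KO and 24, 14 and 21 in WT. Chromosome 14 from 53751418 to 53761171, the last of them before the empty stretch, had 11, 18 and 28 steps in Cgas_KO and 24, 26 and 9 in WT, over 4295 bp. The region named above from 53277897 was also of this kind, with highest points over 6288 bp. Merging chains overlapping peaks, so such a region can hold several sites. In the region from 53528510 the highest point was at 53538733 and 53538882 in Cgas_KO replicates 1 and 3. In the other lists it lay between 53531577 and 53531824. In the region from 53277897 it lay between 53282806 and 53282871 in WT, and at 53279459, 53279786 and 53285747 in Cgas_KO. Heights set side by side there may belong to different sites.

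At the beta locus 3 regions were called in all 6 lists. One lay in the V portion before the empty stretch, chromosome 6 from 41086801 to 41092496, at 36, 22 and 17 steps in Cgas_KO and 26, 28 and 38 in WT. The second was the only one in a D/J/C portion, chromosome 6 from 41522231 to 41537811, at the end of the locus where Trbc1, Trbc2 and Trbv31 stand in the table, and reaching past the border. It was 21, 22 and 12 steps high in Cgas_KO and 22, 24 and 22 in WT, and its highest points were spread over 2540 bp. The third and by mean percentile tallest lay in the upper flank, on the side of Ephb6, which encodes an Eph receptor. This was chromosome 6 from 41577343 to 41585849, at 33, 27 and 23 steps in Cgas_KO and 28, 31 and 33 in WT. The ranges of the groups met or overlapped in steps at each of the 3.

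**Figure D3:**
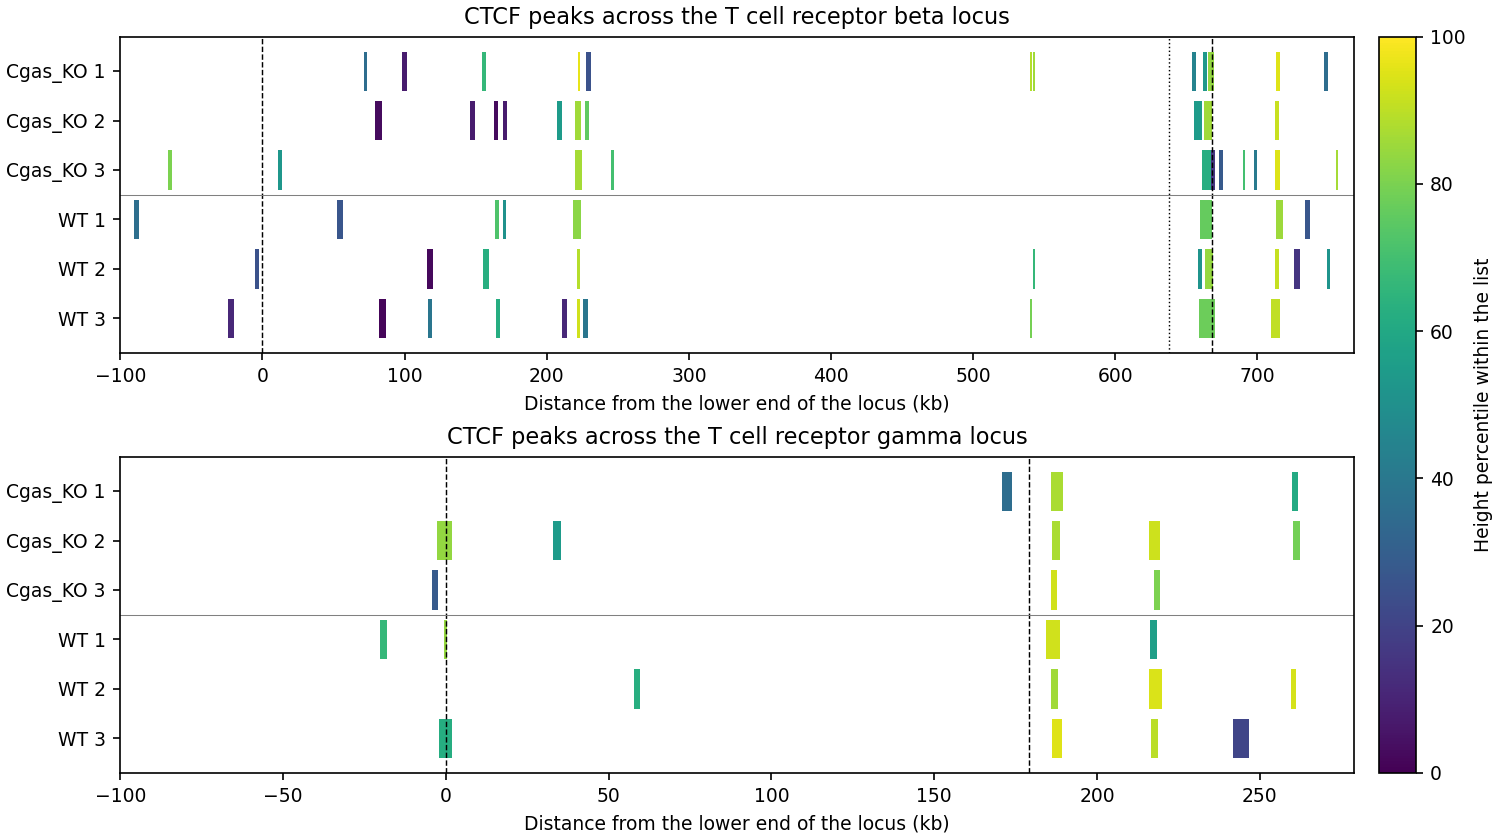
Peaks of the beta locus (top) and the gamma locus (bottom) by library, Cgas_KO above WT, along the distance from the lower border of each locus (x axis, kb). Colours and lines are as for alpha/delta, with no D/J/C line for gamma. Beta peaks stand at both ends of a stretch of 293 kb without any, right next to it in some lists only. The gamma region in all 6 lists lies just past the upper border.

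The gamma locus held few peaks between its borders, and most of its peaks stood in the upper flank. Of 4 equal portions between the borders, the third held 0 peaks in every list and the others 0 to 2 per list. Chromosome 13 from 19546240 to 19551619, the tallest by mean percentile and the only one in all 6 lists, lay past the upper border on the side of Stard3nl, the gene after Trgc4 in the table. It was 23, 23 and 21 steps high in Cgas_KO and 39, 25 and 45 in WT. Its rank was 3449, 3339 and 2064 in Cgas_KO and 1892, 3972 and 1347 in WT, so the groups overlapped in ranks. No region between the borders, where Trgc1 lies, was called in all 6 lists.

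In all, 13 of the 134 regions, 9.70%, were called in 6 of 6 lists, against 5.16% of all regions of the genome. The count was 2 when the peaks of a list had to cover 50% of a region, and 8 when lists were reduced to their top 50% by total signal. Another 68, or 50.7%, were called in 1 list, against 69.9% over the genome, and 26, 13, 8 and 6 were called in 2, 3, 4 and 5 lists. Highest points within 500 bp of one another were found in 6 of the 13, beside 42.7% of such regions in the genome. The median spread was 773 bp against 696.5 bp over the genome.

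**Figure D4:**
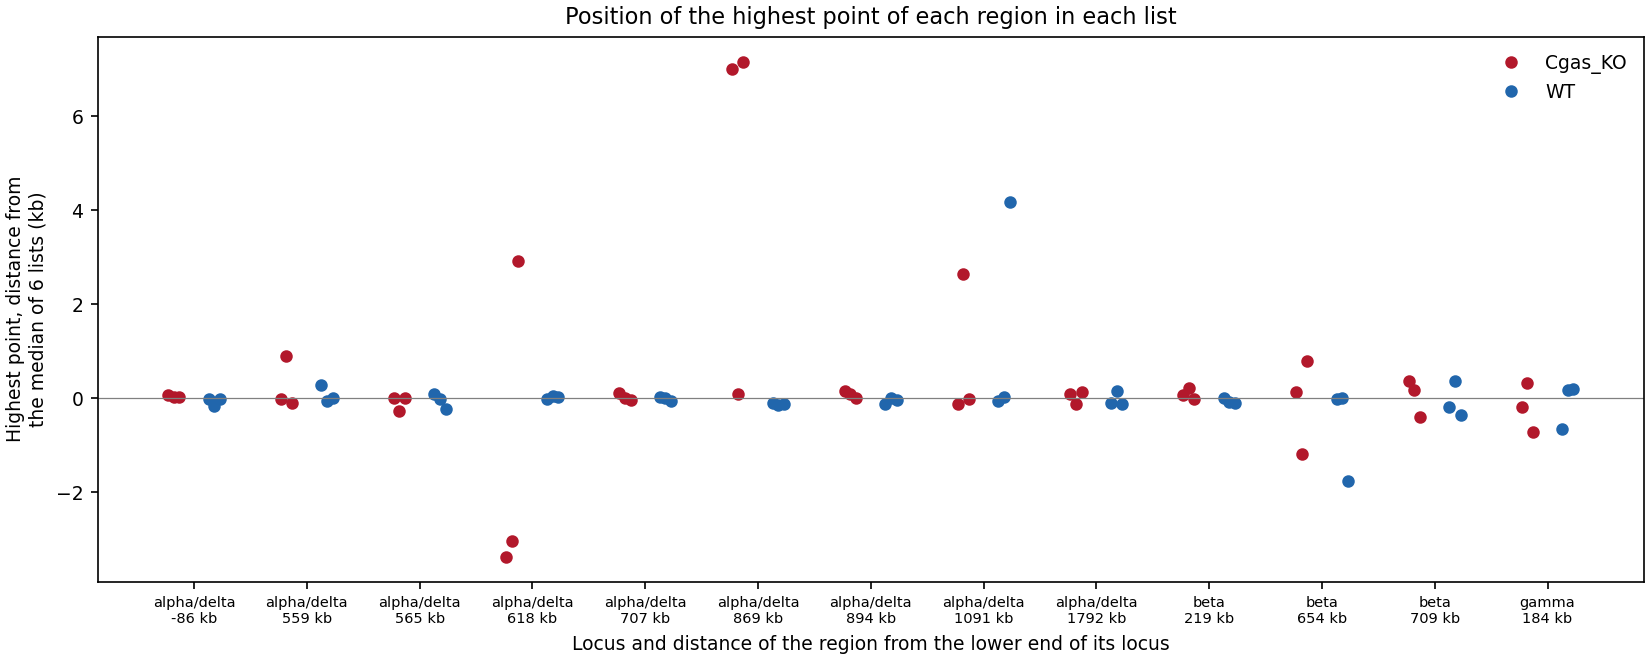
Distance of the highest point in each list from the median over 6 lists (y axis, kb), for the 13 regions called in all 6 lists, named by locus and distance from its lower border. Points are libraries, Cgas_KO left of WT; most lie near 0, and 3 regions of the alpha/delta V portion spread over 4295 to 7305 bp.

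Whether the genotypes differed in how many peaks the loci held was compared per library. The 3 loci held 57 ± 10.8 peaks in Cgas_KO and 51 ± 5.57 in WT (SD, n = 3 each; two-sided exact permutation test, p = 0.6, adjusted 0.72 over 12 tests). Peaks covered 5.87% ± 0.142 of them in Cgas_KO and 5.65% ± 0.450 in WT (SD, n = 3 each; exact permutation p = 0.6, adjusted 0.72). At alpha/delta the counts were 42.3 ± 11.4 in Cgas_KO and 37.7 ± 5.51 in WT (exact permutation p = 0.6, n = 3 each). The difference of 4.67 peaks there became -1.67 without Cgas_KO replicate 3, the list with the most and narrowest peaks, and the difference of 6 over the 3 loci became 0. With lists shortened to the length of the shortest, 27128 peaks, it was 3 (exact permutation p = 0.6), and the difference in covered length was 0.806 kb (exact permutation p = 0.9) in place of 7.17 kb. Without any 1 of the other libraries the difference over the 3 loci lay between 3.5 and 10.5. At beta the counts were 11 ± 1 in Cgas_KO and 9.33 ± 1.15 in WT (exact permutation p = 0.3, n = 3 each). The smallest p that this exact permutation test allows with 3 libraries per group is 0.1.

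The rank of these peaks within their own lists differed in value between the genotypes, without passing a test. The median height percentile over the 3 loci, where 100 would be the tallest peak of a list, was 49.1, 61.5 and 62.4 in Cgas_KO and 72.0, 72.8 and 72.3 in WT. All Cgas_KO values lay below all WT values, with means of 57.7 ± 7.45 in Cgas_KO and 72.4 ± 0.390 in WT (SD, n = 3 each; exact permutation p = 0.1, adjusted 0.6). The difference of -14.7 became -9.52 when peaks were ranked by total signal (exact permutation p = 0.3) and -8.73 in the top 50% of each list (exact permutation p = 0.2). At alpha/delta the medians were 44.8, 61.5 and 52.7 in Cgas_KO and 72.0, 72.8 and 74.5 in WT, again with no overlap (exact permutation p = 0.1, adjusted 0.6, n = 3 each). There the difference of -20.1 became -10.5 by total signal (exact permutation p = 0.3). At beta the order was the other way, 61.5 ± 7.89 in Cgas_KO and 56.4 ± 5.43 in WT (exact permutation p = 0.5, n = 3 each). Whether the loci differ in this was not tested.

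Locus peaks were also split by how many lists shared their region. Peaks in regions of 1 list were 25.7% ± 9.26 of the locus peaks in Cgas_KO and 14.3% ± 1.39 in WT, against 40.5% ± 2.87 of all peaks in Cgas_KO and 36.2% ± 1.3 in WT (SD, n = 3 each). In regions of 6 lists, locus peaks had a median percentile of 82.0 ± 2.81 in Cgas_KO and 83.7 ± 1.13 in WT. In regions of 2 to 5 lists it was 62.1 ± 8.37 in Cgas_KO and 68.6 ± 1.82 in WT, and over the whole genome 53.5 ± 0.889 in Cgas_KO and 57.3 ± 1.12 in WT (SD, n = 3 each). In regions of 1 list it was 30.8 ± 13.7 in Cgas_KO and 33.7 ± 12.3 in WT, whereas over the whole genome it was higher in Cgas_KO, at 37.5 ± 3.08 in Cgas_KO and 27.5 ± 2.52 in WT (SD, n = 3 each). At alpha/delta, regions of 6 lists gave 73.6 ± 8.94 in Cgas_KO and 78.8 ± 2.88 in WT, and the groups overlapped. Regions of 2 to 5 lists gave 59.2 ± 6.79 in Cgas_KO and 71.2 ± 1.60 in WT there, with no overlap. Over the whole genome this class did not overlap either, at 53.4, 54.5 and 52.7 in Cgas_KO and 56.0, 57.9 and 57.9 in WT. Regions of 1 list at alpha/delta gave 25.3 ± 9.66 in Cgas_KO and 33.7 ± 12.3 in WT, with overlap (SD, n = 3 each). The part of the shares named above in the lower median was not tested.

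**Figure D5:**
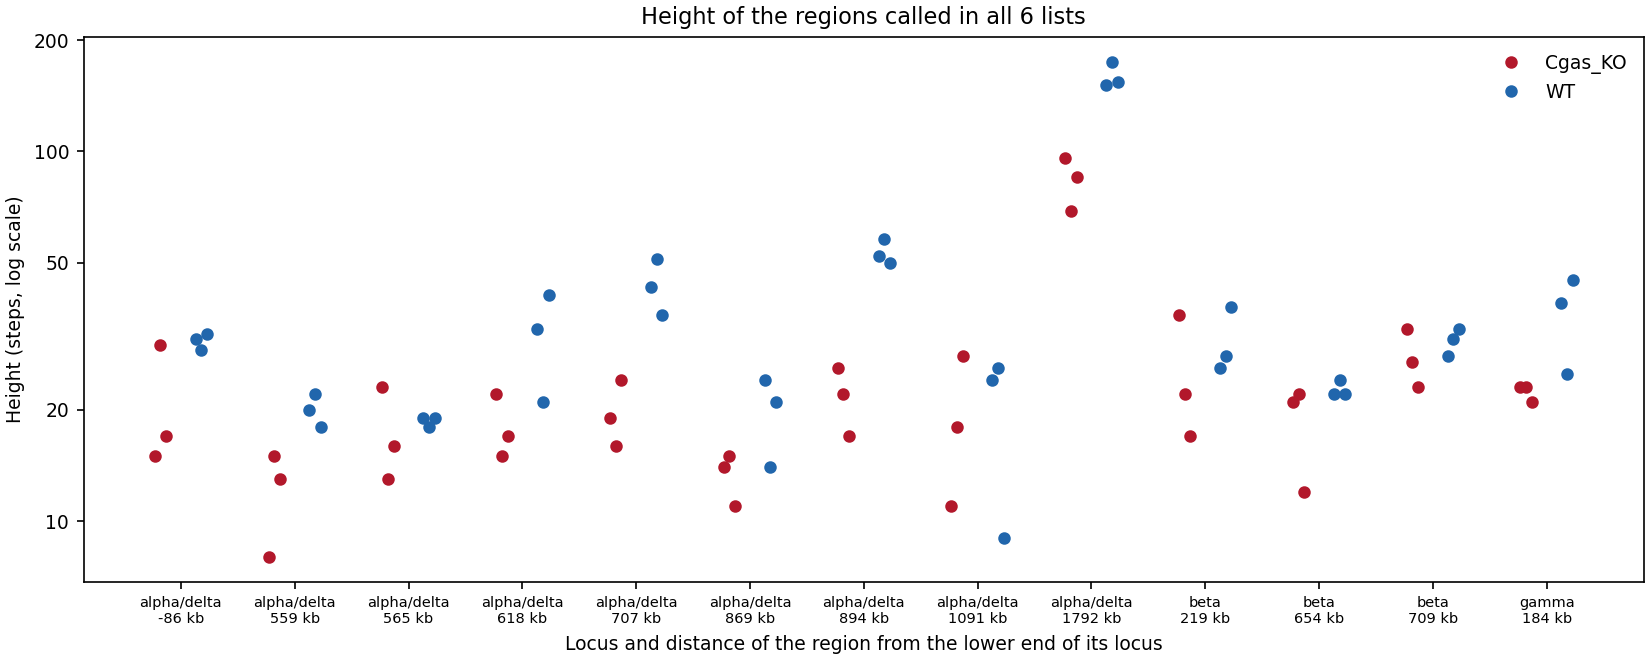
Height in steps (y axis, log scale) of the 13 regions called in all 6 lists, named by locus and distance from its lower border. Points are libraries, Cgas_KO left of WT; the tallest region, at the upper end of alpha/delta, stands at 69 to 96 steps in Cgas_KO and 151 to 175 in WT.

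The relative height of regions in all 6 lists was compared with limma on normal scores of their rank within each library, fitted over all 4896 such regions of the genome. At an adjusted p of 0.05, 0 regions were called, 0% of those tested, and none of the 13. An unadjusted p under 0.05 was reached by 461 regions, 188 lower in Cgas_KO (3.84% of those tested) and 273 higher (5.58%), and 1 of the 13 was among the lower ones. That was chromosome 14 from 53554380 to 53559030, with -0.94 as the score difference (SE 0.20) and a limma adjusted p of 0.314, and its score was below all WT scores in 3 of 3 Cgas_KO libraries. It was also the only one of the 13 in which every Cgas_KO score lay below every WT score, as in 7.68% of all regions. In the opposite direction there was 1 of the 13, the beta region from 41577343, as in 8.76% of all regions (difference 0.40, SE 0.21, limma adjusted p = 0.588).

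Of the 13 differences, 9 were lower and 4 higher in Cgas_KO, with a median of -0.24, beside 2521 lower and 2375 higher with a median of -0.01 over all regions. The tall region at the upper end of alpha/delta differed by -0.09 (SE 0.21, limma adjusted p = 0.917). With height divided by the library's median over the 4896 regions and taken as log2, its difference was -0.56 (limma adjusted p = 0.241), and limma called 1 region of the genome, 0.0204% of those tested, and none of the 13.

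Presence of peaks was compared by calls. Exactly 1 of the 134 regions was called in 0 Cgas_KO and 3 WT lists, against 0.377% of all regions, and 0 were called in 3 Cgas_KO and 0 WT lists, against 0.33% of all regions. The single region was chromosome 14 from 53178613 to 53184749 in the V portion, at 15, 15 and 26 steps in the WT lists, with highest points within 72 bp. All 3 Cgas_KO lists had 17 regions and all 3 WT lists 20, which was 12.7% for Cgas_KO and 14.9% for WT, beside 7.25% for Cgas_KO and 8.38% for WT over the genome. Called in 2 lists of 1 genotype and 0 of the other were 4 regions of Cgas_KO and 5 of WT. Of the regions in 3 Cgas_KO lists, 2 were in 1 WT list and 2 in 2 WT lists. Of those in 3 WT lists, 2 were in 1 Cgas_KO list and 4 in 2 Cgas_KO lists. The shares of these patterns over the genome were not counted, so whether such leaning is usual cannot be told here. Some regions leaning either way are given next and were chosen after their values were seen. Chromosome 14 from 54486681 to 54493841, in the upper flank, was called in 3 Cgas_KO lists at 13, 19 and 12 steps and in 1 WT list at 24 steps. The D/J/C region from 54442572 was likewise called in 3 Cgas_KO lists and 1 WT list, which depends on how it was merged. Chromosome 14 from 54040196 to 54044756, the last region before the empty stretch, was called in 1 Cgas_KO list at 18 steps and in 3 WT lists at 51, 34 and 47 steps. Its highest points lay within 52 bp. Chromosome 14 from 53238980 to 53247286 was called in 2 Cgas_KO lists at 20 and 18 steps and in 3 WT lists at 49, 37 and 50. Chromosome 14 from 53057595 to 53063425 was called in 2 Cgas_KO lists at 16 and 24 steps and in 3 WT lists at 39, 31 and 33. No single region can be tested by its calls, since 3 lists against 3 give no exact p below 0.1.

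The share of regions that pairs of lists had in common was not tested. Of the regions that either list of a pair had there, 27.9% were in both for Cgas_KO pairs, 37.9% for WT pairs and 33.3% for pairs of different genotype. Over the genome the means were 20.9% for Cgas_KO pairs, 24.8% for WT pairs and 22.1% for pairs of different genotype. The ranges over the 3, 3 and 9 pairs at the loci were 24.4 to 31.9%, 33.8 to 43.5% and 28.0 to 39.7%. At alpha/delta the means were 28.9% for Cgas_KO pairs, 41.1% for WT pairs and 33.5% for pairs of different genotype. At beta they were 21.0% for Cgas_KO pairs and 25.6% for WT pairs, about the values over the genome. Beta pairs of different genotype had 29.3% (17.6 to 46.2%), above both of these and above the 22.1% over the genome.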

How the data were processed

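Each of the 6 libraries had 1 deposited peak list of its own. Its columns hold the authors' signal, summed over each peak and at the peak's maximum. Bowtie2 and SEACR 1.3 were used, per the submitters' processing notes; no source used here gives the threshold, any control or the scaling. The notes name mm10 and mm39, and the sequence names of the lists belong to mm39. Peaks on chromosomes 1 to 19, X and Y were used, and the genome span runs from the first to the last peak of each chromosome. Counting intervals were not computed because read depth is unknown, and 3 libraries per group limit the precision.

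Height is the max signal in steps. It was whole within 0.01 step for 100% of peaks under 200 steps. Group values were compared by exact permutation over 20 assignments, and densities by exact sign flips, with Benjamini-Hochberg adjustment. Relative height was tested with limma 3.58.1 (R 4.3.3), and the steps were tested on simulated data. The members, lists of measures and alternatives were chosen with earlier results of these data known. Regions named were those called in all 6 lists, the tallest of each locus, those in 3 lists of 1 genotype and 0 of the other, and those in 5 or more lists in a D/J/C portion; others are marked. No genome of mm39 was used, so no motif was searched, and the motif step of the plan was not run. Exact tests were computed with numpy 2.4.6, normal scores with scipy 1.17.1 and tables with pandas 2.3.3 in Python 3.11.15.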

Additional observations from a re-analysis of the deposited data

How the results depend on the processing

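With 3 libraries per group no exact permutation test between genotypes could pass 0.05, and read depth is unknown. With each list reduced to its top 50% by total signal, the peak difference was -0.333 (-0.667 at alpha/delta), that in covered length -7.46 kb (-3.13 kb at alpha/delta), the density difference -0.246 for beta and 0.727 for gamma, and 8 regions were in all 6 lists. At 50% coverage of a region, 2 were in all 6 lists. Without the flanks, covered length differed by 1.45 kb at beta and 0.962 kb at gamma, and the density difference of beta was -0.131 (exact p = 0.9375). Leaving out 1 library gave differences of 0 to 10.5 peaks (-1.67 to 9.33 at alpha/delta), 0.0598 to 14.7 kb covered (-5.17 to 0.764 at beta, -3.95 to 0.945 at gamma), densities 5.08 to 6.15 higher (7.87 to 9.82 at alpha/delta), where 5 libraries allow no exact p below 0.0625, percentiles -17.0 to -10.4 and 13 to 15 regions. The density difference was 4.48 in the top 50% and 6.65 against the rest of the 3 chromosomes, an alternative added after the data were seen (exact p = 0.03125 in both).

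limma called 1 region of the genome on the log2 scale (897 at an unadjusted p under 0.05) and 0 with total signal (487), at 50% coverage (87) or with a library left out (361 to 604), never one of the 13. Score differences turned sign with total signal at the alpha/delta regions from 53277897 (0.21), 53367369 (0.20), 53751418 (-0.69) and 54452060 (0.0205) and the beta regions from 41522231 (0.41, and 0.0376 on the log2 scale) and 41577343 (-0.28). With a library left out they ran from -0.763 to 0.0792 for the region from 52573645, -0.0859 to 0.669 for 53225194, -0.40 to 1.19 for 53751418, -0.214 to 0.0449 for 54452060, -0.21 to 0.27 for 41086801 and -0.19 to 0.24 for 41522231. The cause was not tested. In fits with a replicate block, limma gave 0 calls and 422 at an unadjusted p under 0.05. Over the 3 numbered pairs the exact sign-flip p was 0.75 for the 6 peaks, 0.5 for the 7.17 kb covered and 0.25, the smallest possible, for the percentile difference of -14.7. Same-numbered libraries did not deviate together (correlations -0.0169 to -0.0129 across 4896 regions). Nor did libraries of different number (-0.0026 to 0.0171). Whether the libraries were prepared in pairs cannot be told from this check.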
